A study of Rattus norvegicus with 10 samples.

Results

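The Cyp2 cytochrome P450 genes described here are the rows of the deposited expression table that carry 1 of 10 symbols, *Cyp2c11*, *Cyp2c13*, *Cyp2c23*, *Cyp2d1*, *Cyp2d2*, *Cyp2d3*, *Cyp2d4*, *Cyp2d5*, *Cyp2e1* and *Cyp2j4*. Of the 32545 genes in the table, 30 carried a Cyp2 symbol, and 10 of these rows matched 9 of the 10 member symbols. *Cyp2c13* had 2 rows. The level of *Cyp2d1* was not analysed here, as no row was matched to it. The members were selected on measured values of these same libraries, namely their FPKM levels and the difference of those levels between males and females. Their levels and sex differences are therefore given as a description. Where the fit over all genes called a member, this is counted beside the share of all genes called, and nothing is read from it. The libraries were made from kidney cortex of PCK rats (PCK/CrljCrl-Pkhd1pck/Crl), 5 of each sex, with 1 library per animal. The strain carries a spontaneous mutation in *Pkhd1*, the gene of autosomal recessive polycystic kidney disease, and forms cysts in kidney and liver. All 10 rats carried the mutation, so nothing here compares them with rats without it. By the labels the rats were 12 to 14 weeks old and the tissue was kidney, whereas the methods of the study describe cortex and a somewhat younger age. The rats were littermates from a pair of litters, and the litter of each rat is not given in the labels. No treatment is named for either sex.

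Cytochrome P450 enzymes are haem proteins of the endoplasmic reticulum that insert oxygen into lipophilic substrates, using electrons passed on by P450 reductase. In the kidney, Cyp2c and Cyp2j enzymes are known for turning arachidonic acid into epoxyeicosatrienoic acids, which act on vessel tone and sodium transport, and *Cyp2e1* for oxidising small solvents, alcohol and fatty acids. *Cyp2c11* and *Cyp2c13* are known from rat liver as male-specific forms, and Cyp2d enzymes handle many basic drugs.

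The Cyp2d genes sit side by side, and their promoters show how alike some of them are. RefSeq promoter windows were matched for all 10 member symbols on the rat build GRCr8, each from 250 bases before to 50 bases after the annotated start. Of the 45 pairs of windows, 4 aligned over at least 200 bases. The *Cyp2d3* and *Cyp2d5* windows were identical at 251 of 261 aligned bases (96.2%), the *Cyp2d1* and *Cyp2d5* windows at 246 of 265 (92.8%), and the *Cyp2d1* and *Cyp2d3* windows at 268 of 296 (90.5%). The fourth pair was *Cyp2c11* and *Cyp2c13*, with 173 of 276 bases identical (62.7%). The *Cyp2d2* and *Cyp2d4* windows aligned with no other window over that length. The sequences printed here are the 3 alike Cyp2d windows, the *Cyp2d2* window, whose gene had overlapping levels in the sexes, and the *Cyp2c11* window, which holds the most of the motifs searched. Capitals mark TATAAA and CCAAT on either strand. The windows are *Cyp2d5* at chr7:115784438-115784737, *Cyp2d3* at chr7:115802093-115802392, *Cyp2d1* at chr7:115793381-115793680 and *Cyp2d2* at chr7:115819232-115819531, all on the minus strand, and *Cyp2c11* at chr1:246174966-246175265 on the plus strand. The RefSeq *Cyp2c13* gene lies on the minus strand next to *Cyp2c12*, as does the *Cyp2c13* row of the table that had no reads, so its window is not printed.
Cyp2d5: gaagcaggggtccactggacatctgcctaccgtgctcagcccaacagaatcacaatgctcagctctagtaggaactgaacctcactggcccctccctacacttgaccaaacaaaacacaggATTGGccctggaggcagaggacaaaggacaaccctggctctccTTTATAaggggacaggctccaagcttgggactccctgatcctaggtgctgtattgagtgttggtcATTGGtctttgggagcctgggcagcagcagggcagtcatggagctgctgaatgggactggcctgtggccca
Cyp2d3: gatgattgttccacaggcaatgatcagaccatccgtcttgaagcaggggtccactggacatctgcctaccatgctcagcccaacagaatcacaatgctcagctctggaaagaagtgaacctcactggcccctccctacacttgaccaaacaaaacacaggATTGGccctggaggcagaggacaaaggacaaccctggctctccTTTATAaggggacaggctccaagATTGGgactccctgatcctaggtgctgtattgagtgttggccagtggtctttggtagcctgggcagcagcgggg
Cyp2d1: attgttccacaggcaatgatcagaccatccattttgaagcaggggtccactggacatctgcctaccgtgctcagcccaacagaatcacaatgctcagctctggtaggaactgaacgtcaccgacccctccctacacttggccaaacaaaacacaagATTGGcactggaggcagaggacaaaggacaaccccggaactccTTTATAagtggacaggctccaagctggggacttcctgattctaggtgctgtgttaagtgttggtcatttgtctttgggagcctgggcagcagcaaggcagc
Cyp2d2: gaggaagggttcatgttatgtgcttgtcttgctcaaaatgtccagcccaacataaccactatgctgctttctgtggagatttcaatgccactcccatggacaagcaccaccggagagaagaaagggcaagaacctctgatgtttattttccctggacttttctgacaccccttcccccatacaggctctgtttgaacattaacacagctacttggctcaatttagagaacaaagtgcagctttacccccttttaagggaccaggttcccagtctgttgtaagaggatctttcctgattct
Cyp2c11: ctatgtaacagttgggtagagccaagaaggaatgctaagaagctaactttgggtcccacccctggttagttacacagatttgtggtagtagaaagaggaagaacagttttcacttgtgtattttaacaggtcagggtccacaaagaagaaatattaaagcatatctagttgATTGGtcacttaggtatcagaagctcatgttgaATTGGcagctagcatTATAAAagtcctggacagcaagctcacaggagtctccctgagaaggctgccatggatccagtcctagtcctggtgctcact
TATAAA stood in 6 of the 10 windows (*Cyp2c11*, *Cyp2c13*, *Cyp2d1*, *Cyp2d3*, *Cyp2d5* and *Cyp2e1*) and in 14.2% of all 33469 RefSeq windows of the same length, counting both strands. CCAAT stood in the same 6 windows and in 37.5% of all windows. In *Cyp2c11* the TATAAA began 31 bases before the start. In *Cyp2d1*, *Cyp2d3* and *Cyp2d5* the letters stood on the opposite strand. AGAACA, a half-site of the steroid receptors, stood in *Cyp2c11*, *Cyp2c13* and *Cyp2d2* and in 20.7% of all windows. AGGTCA, a half-site of other nuclear receptors, stood in *Cyp2c11* and *Cyp2e1* (16.2% of all windows). GTTAAT, a half-site of Hnf1, stood in *Cyp2d2* alone among the members (7.45%), and TTCNNNGAA, the palindrome that Stat5 binds, in *Cyp2j4* alone (8.87%). CAAAGTCCA, bound by Hnf4, stood in none of the 10 windows (0.391%). No base of a member window was covered by matches of 2 different motifs, and no match was tested as a site.

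Levels of the members ran from a mean of 1281 FPKM for *Cyp2c23* to 0.0317 FPKM for *Cyp2c11*, both in females, and the members lower in females were those of low level. Of the 9 rows with a read, 6 had every female below every male, against 2.6% of the 17631 genes tested, and 0 had every female above every male, against 2.5%. The fit over all genes used limma on log2(FPKM + 0.1), where FPKM is a fragment count scaled by gene length and a factor per library. In it, 5 of the 9 were called lower in females. A call took an adjusted p no higher than 0.05 together with a log2 difference of 1 or more. That background was 0.698% of genes lower and 0.618% higher, with 0 members called higher. At the adjusted p alone, the same 5 members passed, and 2.4% of all genes did. *Cyp2c11*, 1 of the 5, passed the filter of a mean of 0.1 FPKM through the males alone (means 0.739 in males and 0.0317 in females). With a pseudocount of 1, the amount added to FPKM before the log, 3 members were called lower, against 0.408% of all genes. The median log2 difference over all genes tested was -0.01. In bulk tissue, fewer cells of a type and less RNA per cell cannot be told apart.

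**Figure D1:**
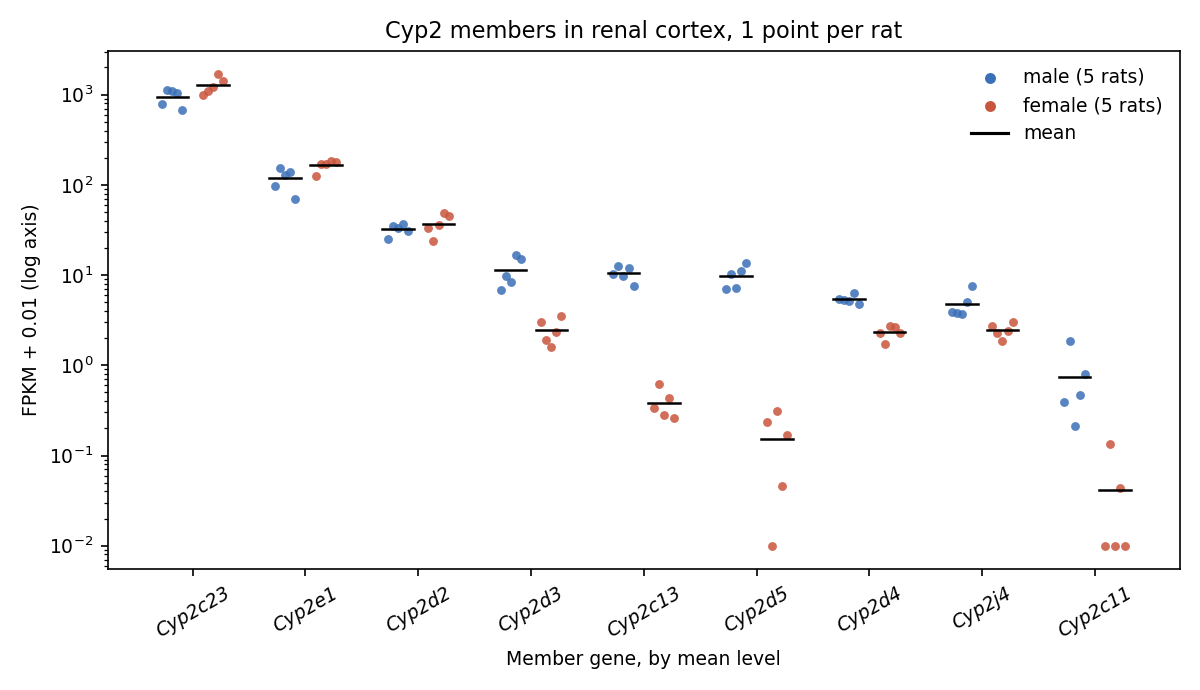
Expression of the 9 member rows with a read, as FPKM + 0.01 on a log axis, with 1 point for each of the 5 male (blue) and 5 female (red) rats and a line at each mean. The 3 highest genes overlapped between the sexes, and the 6 to their right had every female below every male.

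*Cyp2c23*, the main arachidonic acid epoxygenase of rat kidney, was the highest member by far. It lies on chromosome 1 of Rnor_6.0, the build of the table, from 263778516 to 263803150. Males 1 to 5 had 781, 1140, 1109, 1050 and 670 FPKM, and females 1 to 5 had 995, 1086, 1218, 1680 and 1426 FPKM. The ranges overlapped, as 3 males lay above the lowest female. The male mean was 950 ± 211 FPKM and the female mean 1281 ± 276 FPKM (SD, n = 5 each), a log2 difference of 0.44 (SE 0.20) between females and males. *Cyp2c23* alone took 81.3% of the summed FPKM of all 30 Cyp2 rows in males and 84.2% in females. Each rat gave it 19315 to 57196 reads.

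*Cyp2e1*, the ethanol-inducible form, came next (chromosome 1, 213511874 to 213535542). Males had 97.6, 153, 129, 140 and 70.3 FPKM, and females had 124, 172, 170, 183 and 179 FPKM. Again the ranges overlapped, and only female 1 lay within the male range. Means were 118 ± 33.7 and 165 ± 23.8 FPKM (SD, n = 5 each), a log2 difference of 0.53 (SE 0.20). Its share of all Cyp2 FPKM was 9.98% in males and 11.0% in females.

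Both high members are known to be made in the proximal tubule, the nephron segment that takes back most of the filtrate, so its markers are given beside them. The summed FPKM of 12 of 12 proximal tubule markers ranged from 3288 to 4794 in males and from 3138 to 5417 in females. Male 5 had the lowest sum of the males, the lowest *Cyp2c23* and *Cyp2e1*, and the highest sum of 5 immune cell markers (2093 FPKM against 1113 to 1312 in the other males). Female 4 had the highest proximal sum and the highest *Cyp2c23* and *Cyp2e1* of all rats but the lowest immune sum (809 FPKM). When each library was divided by its proximal tubule marker sum, scaled to the mean sum, an alternative chosen after seeing the data, *Cyp2c23* lay from 833 to 1027 in males and from 1196 to 1466 in females. *Cyp2e1* then lay from 90.6 to 138 in males and from 143 to 232 in females. Both genes thus had ranges apart on that scale, whereas their log2 differences, 0.44 and 0.54, stayed close to those in FPKM. The share of all genes with ranges apart on that scale was not counted, so nothing is read from the separation. Among the proximal markers, *Cubn* (log2 difference 0.72, adjusted p = 0.0467) and *Slc5a1* (log2 difference 0.73, adjusted p = 0.0353) were higher in females by limma. The log2 difference was above 0 for 8 of the 12 and below 0 for 4, with a median of 0.10. Markers of more distal segments had larger medians, at 0.47 for the distal convoluted tubule (3 of 3 tested above 0), 0.44 for principal cells (5 of 5) and 0.57 for intercalated cells (5 of 5). Of these, *Calb1*, *Avpr2* and *Atp6v0d2*, 1 in each list, passed the adjusted p in limma. The summed FPKM of the distal convoluted tubule markers was 205 to 332 in males and 314 to 546 in females. For the thick ascending limb the median was 0.35, with *Egf* higher (log2 difference 0.82, adjusted p = 0.00233) and *Ptger3* lower (log2 difference -0.62, adjusted p = 0.0435) by limma. The part of these shifts in the levels of the members was not tested.

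The Cyp2d genes lie within a single stretch of chromosome 7, in the order *Cyp2d4*, *Cyp2d5*, *Cyp2d3*, *Cyp2d2*, with no other row of the table between them. *Cyp2d2* (123651827 to 123655896), a debrisoquine-type drug hydroxylase, had 25.4, 35.4, 33.2, 37.1 and 31.0 FPKM in males. In females it had 33.3, 23.8, 35.7, 48.2 and 45.1 FPKM. The sexes overlapped, with the lowest value in female 2 and the highest in female 4. Means were 32.4 ± 4.56 and 37.2 ± 9.75 FPKM (SD, n = 5 each), a log2 difference of 0.17 (SE 0.18). That difference was 0.06 without female 4, 0.08 without male 1, 0.09 without female 5 and 0.32 without female 2.

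*Cyp2d5* (123616596 to 123621102) had the largest log2 difference of the members. Males had 6.93, 10.3, 7.24, 11.1 and 13.6 FPKM, and females had 0.225, 0, 0.298, 0.0355 and 0.158 FPKM. Every male lay above every female, and female 2 had no read at all, at a limit of 3 reads per library for a count of 0. The 5 female libraries held 19 reads in all and the 5 male libraries 1329. Scaled by the library factors of the FPKM values, this was 67.7-fold more in males (exact 95% interval of counting error 43.2 to 113). The log2 difference on the FPKM + 0.1 scale was -5.49 (SE 0.38), a scale that understates the change of so low a level.

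*Cyp2d3* (123625590 to 123638765) followed the same direction with a smaller difference. Males had 6.87, 9.77, 8.27, 16.6 and 15.0 FPKM, and females had 2.98, 1.91, 1.58, 2.32 and 3.54 FPKM. The ranges were apart, with males 4 and 5 the highest. Means were 11.3 ± 4.25 and 2.47 ± 0.795 FPKM (SD, n = 5 each), a log2 difference of -2.12 (SE 0.28). The row has a deposited length of 3339 bases and a span of 13176 bases, against lengths of 1590 to 1759 bases for the other 3 Cyp2d rows. RefSeq places *Cyp2d1* between *Cyp2d5* and *Cyp2d3*, with a span of 4405 bases for *Cyp2d1* and 4358 bases for *Cyp2d3*. The row thus spans more than either gene, and levels given for *Cyp2d3* are those of the row that carries the symbol. Whether the row takes reads of *Cyp2d1* was not tested. How alike the transcripts of the array are was not measured, and how reads that match several rows were counted is not stated.

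*Cyp2d4* (123599266 to 123608436), known as a Cyp2d form expressed outside the liver, varied least of the members in males. Males had 5.41, 5.29, 5.21, 6.35 and 4.78 FPKM, and females had 2.27, 1.70, 2.70, 2.64 and 2.29 FPKM. The sexes were apart, and the coefficient of variation was 10.7% in males and 17.2% in females. Means were 5.41 ± 0.578 and 2.32 ± 0.398 FPKM (SD, n = 5 each), a log2 difference of -1.20 (SE 0.14). With a pseudocount of 1 the difference was -0.95, below the fold threshold, and *Cyp2d4* was not called.

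A sum over the array depends less on how reads are split between its rows. The 4 rows together had 59.0 ± 10.2 FPKM in males and 42.1 ± 10.4 FPKM in females (SD, n = 5 each), with overlapping ranges of 44.6 to 71.2 and 27.4 to 53.1 (log2 ratio of means -0.48). Summed as reads per library depth, which leaves out row lengths, the log2 ratio was -0.72. Without *Cyp2d2*, the sum was 26.5 ± 6.91 FPKM in males (19.2 to 34.1) and 4.93 ± 0.905 FPKM in females (3.61 to 5.98), which was 0.186 of the male level. *Cyp2d2* made up 55.4% of the array's FPKM in males (48.2 to 61.6%) and 88.1% in females (85.9 to 90.6%). The share of *Cyp2d5* was 16.5% in males and 0.339% in females, and that of *Cyp2d3* was 18.7% and 5.98%.

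**Figure D2:**
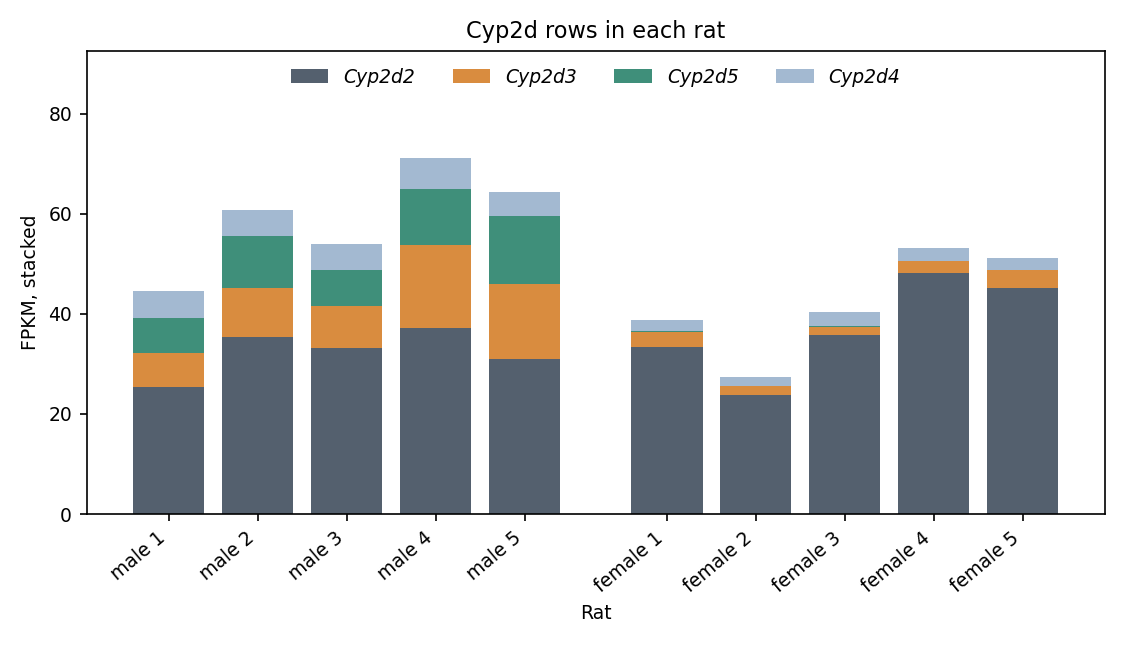
FPKM of the 4 Cyp2d rows stacked for each rat, with males 1 to 5 on the left and females 1 to 5 on the right. *Cyp2d2* fills 48.2 to 61.6% of the bar in males and 85.9 to 90.6% in females, and the *Cyp2d5* layer is at most 0.298 FPKM high in females.

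Of the 2 *Cyp2c13* rows, 1 had reads, and few of them in females. It lies on the plus strand of chromosome 1 from 258074860 to 258139176, next to *Cyp2c11*, where RefSeq places *Cyp2c24*. Whether this row measures *Cyp2c13* is therefore not settled, and levels given for *Cyp2c13* are those of the row that carries the symbol. Males had 10.3, 12.6, 9.66, 11.8 and 7.62 FPKM, and females had 0.330, 0.607, 0.268, 0.426 and 0.253 FPKM. Every male lay above every female. Male libraries held 227 to 485 reads and female libraries 8 to 17. Scaled by the library factors of the FPKM values, the ratio was 28.6 (exact 95% interval of counting error 22.1 to 37.6). The log2 difference was -4.49 (SE 0.21). The second row of the symbol (258796624 to 258877023, minus strand) was at 0 reads in all 10 libraries.

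*Cyp2c11*, the major P450 of adult male rat liver, was the lowest member. It lies 70426 bases from *Cyp2c13* (257970345 to 258004434), with no row between them. Males had 0.381, 1.87, 0.204, 0.457 and 0.785 FPKM, from 10, 59, 5, 16 and 20 reads. In females, 3 of 5 libraries had 0 reads, female 2 had 3 reads (0.125 FPKM) and female 4 had 1 read (0.0332 FPKM). The ranges were apart, but male 2 held 59 of the 110 male reads. The ratio of males to females was 26.6 (exact 95% interval of counting error 10.1 to 99.5). The log2 difference on the FPKM + 0.1 scale was -2.44 (SE 0.49). It was -4.65 with a pseudocount of 0.01 and -0.68 with a pseudocount of 1, where *Cyp2c11* was not called. A count of 0 in these 3 female libraries allows up to 3 reads each. When any of 6 single libraries (males 4 and 5, females 1, 3, 4 and 5) was left out, *Cyp2c11* was no longer among the called genes, and 4 members were, against 0.505 to 0.657% of all genes tested called lower.

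Hepatocyte genes were checked beside the members whose symbols are known from liver. Of 12 hepatocyte markers, *Cyp7a1*, the rate-limiting enzyme of bile acid synthesis, was at 0 reads in every library, and *Alb*, the albumin gene, had at most 3 reads in any. Their part in the levels of those members was not tested. The summed level of the list lay between 18.8 and 75.6 FPKM for males and between 19.2 and 69.5 for females, with *Fga*, a fibrinogen chain, the highest gene (21.4 and 23.7 FPKM). In that list, *Apoh* was lower in females (3.82 and 0.615 FPKM, adjusted p = 0.0109) and *Ttr* was higher (listed at 0 in each male, mean 0.643 FPKM in females, adjusted p = 0.0142), both by limma. *Ttr* passed the filter through the females alone.

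*Cyp2j4*, an arachidonic acid epoxygenase and the only member on chromosome 5 (119546461 to 119564846), had 3.85, 3.76, 3.70, 5.08 and 7.63 FPKM in males. In females it had 2.71, 2.28, 1.84, 2.40 and 3.02 FPKM. The sexes were apart, with male 5 the highest. Means were 4.80 ± 1.68 and 2.45 ± 0.448 FPKM (SD, n = 5 each), a log2 difference of -0.90 (SE 0.21). *Cyp2j4* passed neither the fold threshold nor the adjusted p. Divided by the proximal tubule marker sum, the ranges overlapped, at 3.27 to 9.83 in males and 1.81 to 3.31 in females, while the log2 difference stayed at -0.90. Male 5 set this high end. The log2 difference of fibroblast markers was below 0 for 4 of 4 genes, with sums of 68.5 to 224 FPKM in females against 230 to 313 FPKM in males. Of these, *Col3a1*, a fibrillar collagen, was called lower (log2 difference -1.14, SE 0.26, adjusted p = 0.0477, limma). Immune cell markers were below 0 for 5 of 5 genes, none past the adjusted p, with a median log2 difference of -0.44. Their sums overlapped, at 809 to 1745 FPKM in females and 1113 to 2093 FPKM in males, with male 5 the highest. The part of both lists in the *Cyp2j4* difference was not tested.

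Ordered by mean level within males, the members ran *Cyp2c23*, *Cyp2e1*, *Cyp2d2*, *Cyp2d3*, *Cyp2c13*, *Cyp2d5*, *Cyp2d4*, *Cyp2j4* and *Cyp2c11*. The neighbours whose ranges overlapped in males were *Cyp2d3* with *Cyp2c13*, *Cyp2c13* with *Cyp2d5*, and *Cyp2d4* with *Cyp2j4*. In females the first 4 places were the same, followed by *Cyp2j4*, *Cyp2d4*, *Cyp2c13*, *Cyp2d5* and *Cyp2c11*. There, *Cyp2d3*, *Cyp2j4* and *Cyp2d4* overlapped in turn, and so did *Cyp2c13*, *Cyp2d5* and *Cyp2c11*. *Cyp2d2* stood 2.87-fold above the fourth gene in males and 15.1-fold above it in females. All Cyp2 rows together had 1166 ± 248 FPKM in males (843 to 1396) and 1519 ± 305 FPKM in females (1186 to 1949; SD, n = 5 each), so the summed level overlapped. The member rows together had 1143 FPKM in males (821 to 1372) and 1491 FPKM in females (1161 to 1919), also with overlap. Without *Cyp2c23* and *Cyp2e1*, the member sum was 74.9 ± 11.6 FPKM in males (59.2 to 88.6) and 45.0 ± 10.5 FPKM in females (30.4 to 56.0), with no overlap. The members left out were those with the largest log2 differences above 0, so nothing is read from this.

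Outside the members, 20 Cyp2 rows were listed, 13 had a read and 7 were tested. None of the 7 was called by limma, 3 had an unadjusted p under 0.05 (15.7% of all genes tested did), and under 4 alternatives 1 was called. Their median log2 difference was -0.03. The 3 highest were *Cyp2t1*, *Cyp2r1* and *Cyp2s1*. *Cyp2t1* had 8.52 ± 0.609 FPKM in males and 8.42 ± 1.44 in females (SD, n = 5 each). *Cyp2r1*, a vitamin D 25-hydroxylase, ranged from 2.05 to 5.67 FPKM in males and from 5.25 to 9.23 FPKM in females (log2 difference 0.77, adjusted p = 0.164, limma). *Cyp2s1* had 4.08 ± 0.255 and 5.58 ± 1.08 FPKM (adjusted p = 0.143, limma). The gene called under those alternatives was *Cyp2ab1*, at 0.0250 and 0.187 FPKM and 0 to 13 reads per rat, with an adjusted p of 0.0945 in limma. It passed the filter through the females alone and is named after its values were seen.

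**Figure D3:**
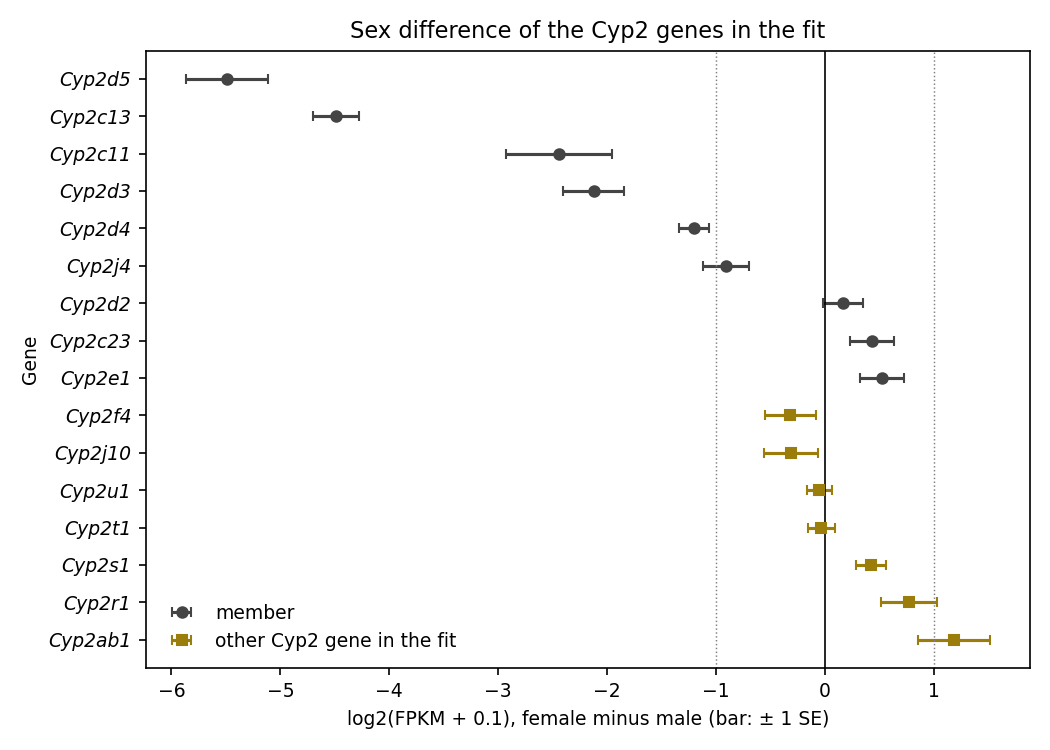
Difference in log2(FPKM + 0.1), females minus males, with bars of ± 1 SE, for the 9 members with a read (circles) and the 7 other Cyp2 genes tested (squares). Members run from -5.49 for *Cyp2d5* to 0.53 for *Cyp2e1*, and the other genes from -0.32 to 1.19. Dotted lines mark a log2 difference of 1 in either direction.

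Of 18 tested genes that serve P450 enzymes in general, for electron donors, haem-binding partners, and the synthesis and breakdown of haem, 0 passed both thresholds or the adjusted p alone in limma, and 1 had an unadjusted p under 0.05. Over all genes these shares were 0.698% lower and 0.618% higher, 2.4% and 15.7%, so nothing is read from the counts of so short a list. No alternative called any of the 18. *Por*, the P450 reductase, had 49.0 ± 8.21 FPKM in males and 59.8 ± 9.80 FPKM in females (SD, n = 5 each; log2 difference 0.29, SE 0.14, adjusted p = 0.356, limma). The gene of the list with the highest mean over all 10 libraries was *Cyb5a*, cytochrome b5, with means of 252 FPKM (males) and 297 FPKM (females; adjusted p = 0.405, limma). The median log2 difference of the list was 0.09.

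Among 16 tested genes of arachidonic acid release and of its other routes, 0 passed either rule in limma (0.698% lower, 0.618% higher and 2.4% of all genes), 2 had an unadjusted p under 0.05 (15.7% of all genes), the median log2 difference was 0.03, and no alternative called any. *Ephx2*, the soluble epoxide hydrolase that breaks down the epoxides made by Cyp2c and Cyp2j enzymes, had 3.80 ± 0.997 FPKM in males and 3.99 ± 0.928 FPKM in females (SD, n = 5 each; log2 difference 0.08, SE 0.22, adjusted p = 0.902). The highest was *Mgll*, monoacylglycerol lipase, at 162 and 186 FPKM (adjusted p = 0.790, limma).

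Among receptors and transcription factors known to act on Cyp2 genes, 2 hormone receptors were lower in females. Of 26 tested rows, 2 were called lower and 0 higher, against 0.698% and 0.618% of all genes. An unadjusted p under 0.05 was found for 7 of them, against 15.7% of all genes, and the median log2 difference was -0.08. *Prlr*, the prolactin receptor, had 12.8, 16.5, 12.2, 35.8 and 20.8 FPKM in males. In females it had 5.94, 3.18, 3.73, 5.67 and 4.44 FPKM. The sexes were apart, and male 4 was the highest (log2 difference -1.99, SE 0.29, adjusted p = 0.00369, limma). *Esr1*, the estrogen receptor, had 4.75, 5.58, 5.29, 6.88 and 5.03 FPKM in males. In females it had 2.27, 1.66, 1.95, 3.72 and 2.43 FPKM, also apart (log2 difference -1.20, SE 0.20, adjusted p = 0.00793, limma). With a pseudocount of 1, *Esr1* fell below the fold threshold. *Ahr*, the aryl hydrocarbon receptor, was higher in females by 0.43 on the log2 scale (SE 0.10, 5.66 and 7.68 FPKM, adjusted p = 0.0499, limma), below the fold threshold. Its adjusted p ran from 0.0350 to 0.171 over 22 alternatives and passed in 5, whereas those of *Prlr* and *Esr1* passed in all 22. *Ghr*, the growth hormone receptor, had 45.5 ± 7.06 and 41.2 ± 9.03 FPKM (SD, n = 5 each; adjusted p = 0.691, limma), and *Hnf4a*, the highest of the list, 143 ± 13.2 and 141 ± 31.4 FPKM (adjusted p = 0.926). Both were within the spread between rats.

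Genes around the members were counted in the same way. Within 250 kb of a member lay 72 rows that carry no Cyp2 symbol, of which 41 were tested. Of the untested rows, LOC100361492, at 0 reads in all 10 libraries, has the gene number that RefSeq gives to *Cyp2c55*. Of the 41, 0 passed an adjusted p of 0.05 in limma, against 2.4% of all genes, and 2 had an unadjusted p under 0.05, against 15.7%. Their median log2 difference was -0.07, in a range of -1.80 to 0.51. *Syce1*, a synaptonemal complex gene that overlaps *Cyp2e1* on the opposite strand, was closest to the threshold (log2 difference -1.42, SE 0.33, adjusted p = 0.0549), at 0 to 8 reads per rat, and 3 alternatives called 1 gene of this set, which was *Syce1*. *Syce1* passed the filter through the males alone. It is named after its values were seen, and it is not stated if reads were counted by strand.

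**Figure D4:**
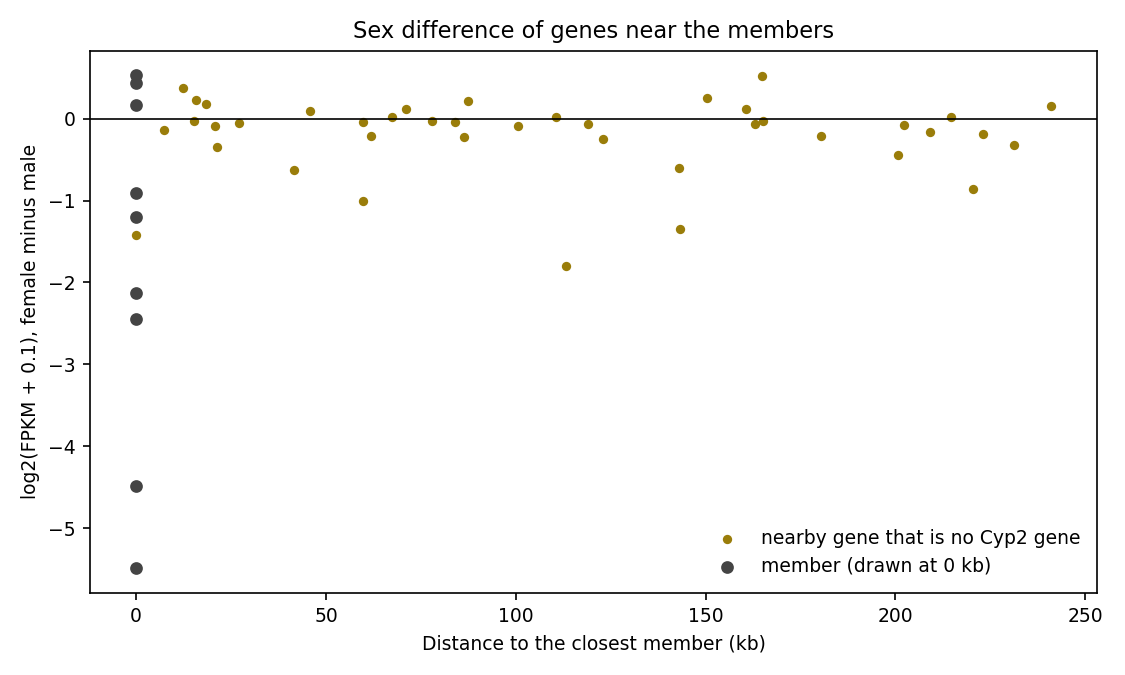
Difference in log2(FPKM + 0.1), females minus males, against the distance in kb to the closest member, for the 41 tested genes within 250 kb that are no Cyp2 gene. Members are drawn at 0 kb for comparison and run from -5.49 to 0.53, and the nearby genes from -1.80 to 0.51.

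The profile most like that of *Cyp2c23* over the 10 libraries, among the 13363 genes whose mean reached 1 FPKM, was that of *Ccdc141*, followed by *Plekha1* and *Cbs*. Likeness was the root mean square difference of log2(FPKM + 0.1) after each gene was centred on its own mean, at 0.0762, 0.0930 and 0.0941. The root mean square of *Cyp2c23* itself around its mean was 0.362. For *Cyp2d5* the 3 closest profiles were those of *Akr1c12l1* (0.609), AABR07068046.1 (0.682) and *Kdm5d* (0.689). The root mean square of *Cyp2d5* itself was 2.81. It was taken as the member with the largest sex difference, so profiles near it share such a difference and nothing is read from them. *Akr1c12l1* had a mean of 127 FPKM in males and 2.62 in females, and *Kdm5d*, a gene of the Y chromosome, 5.91 in males and 0.0114 in females.

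The libraries held 13912569 to 20285911 reads on genes, with a read on 18018 to 18639 genes. The share of mitochondrial reads was 14.3 to 19.1% in 9 libraries and 26.8% in female 2, which had the lowest *Cyp2d2*, *Cyp2d4* and *Cyp2d5* of the females but the highest *Cyp2c13* and *Cyp2c11*. With male 5 and female 2 both left out, an alternative chosen after seeing the data, the members called lower were *Cyp2d3*, *Cyp2c13*, *Cyp2d5* and *Cyp2d4*, against 0.606% of all genes called lower (106) and 0.623% higher (109). The log2 differences of the 9 members kept their direction in that subset, with *Cyp2e1* at 0.34 and *Cyp2d2* at 0.30.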

How the data were processed

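The authors' provider mapped the reads with HISAT2 to Ensembl Rnor_6.0, and the authors deposited FPKM values of 32545 genes for 10 libraries, 1 per rat. The submitters' processing notes also name fastp, StringTie 1.3.3b and featureCounts 1.5.0-p3, and give HISAT2 as 2.0.5. Treatment of strand and of reads with several matches is not given in the sources used here. Whether such reads moved levels between the Cyp2d rows was not tested.

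The members and gene lists were chosen with earlier results of these data known. Sex came from the labels. FPKM multiplied by the deposited gene length gave whole reads for 100% of values (tolerance 0.01 reads), and these served for depth, counting intervals and an alternative test. Intervals and the limit of 3 reads for a count of 0 cover counting error only. Over all genes, limma 3.58.1 in R 4.3.3 (lmFit, eBayes with trend) was applied to log2(FPKM + 0.1) for 17631 genes whose mean reached 0.1 FPKM, with Benjamini-Hochberg adjustment, and no covariate. Calls needed an adjusted p no higher than 0.05 with a log2 difference of 1 or more. SEs come from that fit, and the procedure was tested on simulated data. Other genes are named where called or past the adjusted p, where highest in their list (the 3 highest for Cyp2), or where preset (Por, Ephx2, Esr1, Ghr, Hnf4a), and 1 further preset gene is not reported here. Alternatives were other pseudocounts, filters, scalings and eBayes settings, limma-voom on the recovered reads, a replicate block, the adjusted p alone, and leaving out each library. Same-numbered males and females did not deviate together (correlations over genes of -0.10 to 0.07), so the numbers were not taken as pairs. Promoter windows come from RefSeq (GRCr8) and were aligned with Biopython 1.88. Python 3.11.15 with numpy, pandas and scipy was used.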

Additional observations from a re-analysis of the deposited data

Results flagged for a closer look

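Each of 24 groups of 5 rats, males and females for the 9 members and 3 summed levels, was checked for a library far from the rest, by the gap to its nearest neighbour as a share of the group's range. Chance marks about 1 group in 20. There were 2 such libraries. *Cyp2e1* in female 1 was the lowest of the females at 124 FPKM, with the next at 170 FPKM (gap 0.783 of the range). *Cyp2c11* in female 2 was the highest of the females at 0.125 FPKM from 3 reads, with the next at 0.0332 FPKM from 1 read (gap 0.735 of the range), so the gap is that of 3 reads from 1.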

How the results depend on the processing

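The 9 members kept the direction of their log2 difference under every alternative run, and 378 of 399 recomputed values stayed close to the main ones (counts within 1.5 times, differences within 1 SD between rats, a wide bound for *Cyp2d2*, whose small difference ran from 0.06 to 0.32 with 1 library left out). The size for low genes depended on the pseudocount. With a pseudocount of 1, *Cyp2c13* was at -3.04, *Cyp2d5* at -3.21, *Cyp2d4* at -0.95 and *Cyp2c11* at -0.68, which left 3 members called, with 65 of all genes called higher, 72 lower (0.408%) and 1 regulator. With a pseudocount of 0.01, *Cyp2d5* was at -6.75 and *Cyp2c11* at -4.65. In limma-voom on the recovered reads, *Cyp2c13* was at -4.88, *Cyp2d5* at -6.52 and *Cyp2c11* at -4.24, and 1 other Cyp2 gene and 1 nearby gene were called. The same counts of 1 and 1 came with no filter and from eBayes without trend, and quantile normalization called 1 other Cyp2 gene. The adjusted p alone called 223 genes higher and 201 lower. The cause of the differences in calls was not tested.

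With the replicate block, 89 genes were called higher and 87 lower (0.493%), against 109 and 123 without it, and 5 members were called. The block changed no other call count. Leaving out each library in turn gave 82 to 114 genes higher, 89 to 148 lower and 2 to 3 regulators. A filter at a mean of 1 FPKM left *Cyp2c11* untested. Scaling by total reads moved the median of all genes to -0.08. Depth limits *Cyp2c11* in both sexes, and *Cyp2d5* and *Cyp2c13* in females.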
